A study of Mus musculus with 2 samples.

Results

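A set of 7 transcription factor genes that pattern the spleen as an organ, Tlx1, Nkx2-5, Nkx3-2, Wt1, Tcf21, Barx1 and Nr2f2, were examined for open chromatin in the spleen of young mice. The 7, of 21911 protein-coding genes, were taken by name. Each was described by the DNase-seq peaks within 500 bp of any of its annotated transcription start sites (TSSs), inside the gene, and within 50 kb of its span, and by the footprints in those peaks. In DNase-seq the enzyme DNase I cuts the DNA that nucleosomes leave exposed, and sequenced cut ends pile up as peaks at promoters and enhancers. A footprint is a short protected stretch inside a peak. The tissue was whole spleen of male B6CASTF1/J mice, the first-generation cross of C57BL/6 and CAST/EiJ, at 10 days of age, with no treatment or added allele in the labels. There was 1 group of 2 libraries, biological replicates 1 and 2, which the labels number as separate males under a shared donor identifier. With no second group, no contrast between conditions could be tested, and values are given for each library by itself.

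The spleen arises from mesenchyme beside the stomach and dorsal pancreas. In mice, Tlx1, Nkx3-2, Wt1 and Tcf21 are each needed for the organ to form or persist. Barx1 acts in the stomach mesenchyme that borders the spleen, and Nr2f2 sets the venous identity of vessels and is active in mesenchyme. These factors are known for mesenchymal, mesothelial and vascular cells, which are a minority in a spleen filled with blood cells. In whole tissue, fewer cells of a type and less accessibility per cell cannot be told apart.

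The sequences below are the strongest site found in both libraries whose nearest TSS was the gene's own. For Tlx1 the strongest site of its window is added, and for Nkx2-5 and Wt1, where no site in both lay nearest to the gene, the strongest site of the window is shown. A site is the union of overlapping peaks of the libraries (at least 1 bp), and is in both when it holds a peak of each. Distances are in kb from the start of the gene, negative before it. The bases are the RefSeq sequence of GRCm38 (mm10), forward strand, 5′ to 3′, which is that of the C57BL/6 parent. Capitals mark bases inside footprints of both libraries.
Tlx1 promoter, bases before the first TSS (chr19:45150581-45150679): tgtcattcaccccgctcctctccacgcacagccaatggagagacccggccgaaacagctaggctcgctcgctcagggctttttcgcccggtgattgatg
Tlx1 +10.6 kb (chr19:45161221-45161400): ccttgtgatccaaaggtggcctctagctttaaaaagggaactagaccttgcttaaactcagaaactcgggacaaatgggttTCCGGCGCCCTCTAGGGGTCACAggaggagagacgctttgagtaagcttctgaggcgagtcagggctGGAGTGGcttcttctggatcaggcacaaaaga
Nkx2-5 -40.1 kb (chr17:26885041-26885240): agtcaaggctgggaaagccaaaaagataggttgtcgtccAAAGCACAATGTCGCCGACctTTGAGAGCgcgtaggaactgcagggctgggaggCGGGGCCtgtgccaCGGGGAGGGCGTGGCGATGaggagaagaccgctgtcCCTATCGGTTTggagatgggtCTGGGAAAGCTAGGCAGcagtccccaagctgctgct
Nkx3-2 -4.1 kb (chr5:41768501-41768680): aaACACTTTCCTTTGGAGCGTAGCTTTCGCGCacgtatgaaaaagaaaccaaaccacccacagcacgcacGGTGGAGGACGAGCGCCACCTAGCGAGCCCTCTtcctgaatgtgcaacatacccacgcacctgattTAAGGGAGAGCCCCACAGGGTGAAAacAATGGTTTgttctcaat
Wt1 -17.5 kb (chr2:105108901-105109100): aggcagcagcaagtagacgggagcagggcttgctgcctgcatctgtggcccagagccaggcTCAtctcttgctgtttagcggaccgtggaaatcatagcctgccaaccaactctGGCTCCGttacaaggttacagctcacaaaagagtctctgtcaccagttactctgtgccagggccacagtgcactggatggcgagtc
Tcf21 -48.5 kb (chr10:22868579-22868806): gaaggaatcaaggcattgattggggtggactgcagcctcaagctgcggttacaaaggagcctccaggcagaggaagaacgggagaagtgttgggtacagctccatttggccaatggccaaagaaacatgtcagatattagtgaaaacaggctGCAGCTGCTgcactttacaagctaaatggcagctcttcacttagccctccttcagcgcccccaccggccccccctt
Barx1 -9.0 kb (chr13:48653901-48654080): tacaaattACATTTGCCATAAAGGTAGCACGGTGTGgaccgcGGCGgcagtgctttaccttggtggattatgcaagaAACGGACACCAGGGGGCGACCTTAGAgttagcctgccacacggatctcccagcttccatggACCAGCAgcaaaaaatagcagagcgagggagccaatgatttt
Nr2f2 +4.9 kb (chr7:70361653-70361920): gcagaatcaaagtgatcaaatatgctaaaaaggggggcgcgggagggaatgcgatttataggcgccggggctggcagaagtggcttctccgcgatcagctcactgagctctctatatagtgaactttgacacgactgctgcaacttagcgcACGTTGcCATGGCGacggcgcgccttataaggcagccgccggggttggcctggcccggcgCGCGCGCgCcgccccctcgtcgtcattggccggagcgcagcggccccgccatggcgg
The Tlx1 promoter stretch had no base inside footprints of both libraries, while the Nkx3-2, Nkx2-5 and Barx1 sites had long runs of such bases. The Nkx3-2 site had 96 of its 180 bases in footprints of both, and the Tcf21 site 9 of 228. The central 36 bases of each of the 27 sites in both libraries found over the 7 windows occurred once in the chromosomes.

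Promoters of the patterning genes had weak peaks or no listed peak. A promoter peak was listed for 5 of the 7 genes in replicate 1, against 67.7% of protein-coding genes, and for 1 of 7 in replicate 2, against 61.3%. Tlx1 was the 1 gene with a promoter peak in both libraries, against 60.7% of protein-coding genes. That call ended (0 of 7) with the shorter deposited peak list, with peaks at or above the median signal, and with stretches below a false discovery rate of 0.001. Nkx2-5, Nkx3-2, Wt1 and Tcf21 had one in replicate 1 alone, which held for 6.93% of protein-coding genes. Barx1 and Nr2f2 had none in either library, as did 31.8%.

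Tlx1, a homeobox gene (ENSMUSG00000025215.10, chr19:45150680-45156943, + strand), had a promoter peak in both libraries, with signals of 0.465 (replicate 1) and 0.331 (replicate 2). The signal is a depth-scaled density of cuts as deposited, so its values rank peaks of 1 library, and across libraries only ratios are read. The peak lay over the first TSS, in the UTR exon of the annotation, and spanned 200 bp in replicate 1 and 125 bp in replicate 2. It was weak in both: its signal stood at percentile 10.5 of open promoters in replicate 1 and 6.91 in replicate 2. The median open promoter had 6.92 in replicate 1 and 3.5 in replicate 2.

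The NK family homeobox genes had promoter peaks in replicate 1 alone. Nkx2-5, which acts in the heart and in the early spleen (ENSMUSG00000015579.5, chr17:26838664-26845009, - strand), had 1 peak of 0.405, 301 bp after a TSS and in an intron, at percentile 8.68 of open promoters. Nkx3-2, which acts in the axial skeleton and in spleen mesenchyme (ENSMUSG00000049691.8, chr5:41761483-41764501, - strand), had 3 promoter peaks of 0.679, 0.413 and 0.368. The strongest lay just before its TSS and stood at percentile 15.8. Another 2 weak peaks of 0.39 and 0.326 followed inside the gene, so replicate 1 had a short row of peaks over the Nkx3-2 start where replicate 2 listed none.

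Wt1, a zinc finger gene of kidney, gonad and mesothelium (ENSMUSG00000016458.14, chr2:105126529-105173616, + strand), had the highest promoter signal of the 7 genes in replicate 1, at 0.788, and no promoter peak in replicate 2. That peak stood at percentile 17.7 of open promoters and lay closest to the start of the antisense gene Wt1os, so the promoter of Wt1 and that of Wt1os cannot be told apart there. Further promoter peaks of 0.353 and 0.443 lay at other TSSs of Wt1, which has 8. Tcf21, a basic helix-loop-helix gene of lung, kidney, heart and spleen mesenchyme (ENSMUSG00000045680.8, chr10:22817281-22820174, - strand), had the weakest, a 50 bp peak of 0.27 at percentile 3.59.

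Barx1, a homeobox gene of stomach mesenchyme (ENSMUSG00000021381.4, chr13:48662998-48666507, + strand), and Nr2f2, a nuclear receptor gene (ENSMUSG00000030551.14, chr7:70351944-70366735, - strand), had no promoter peak in either library. Barx1 had 113 CpG dinucleotides within 500 bp of its TSS, the most of the 7 genes, and 2.38% of genes of the high CpG tercile had no promoter peak in either library. Nr2f2 had 13 CpGs at its most upstream TSS, in the low tercile, where 75.5% of genes had none, but 78 at another of its 6 TSSs. CpG-rich promoters are open in most tissues. Tlx1 (64 CpGs) and Wt1 (67) also fell in the high tercile, where a promoter peak was listed in each library for 91.3% of genes. Nkx2-5 (39), Nkx3-2 (57) and Tcf21 (33) fell in the middle tercile, where 72.9% had one in both and 10.1% had one in replicate 1 alone. These shares are descriptions of the annotation around the genes, and no test was made.

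**Figure D1:**
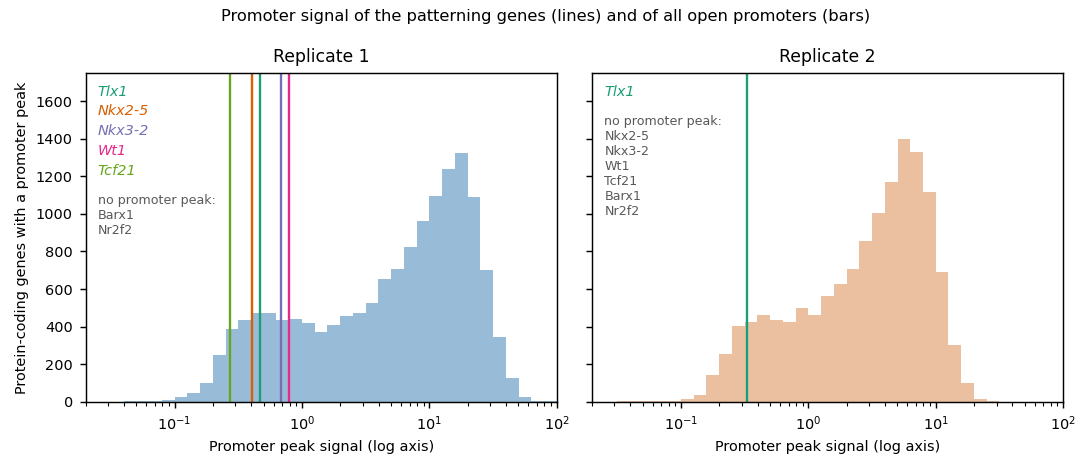
The bars count protein-coding genes by promoter peak signal (log axis) in replicate 1 (left) and replicate 2 (right), and the lines mark the patterning genes that had a promoter peak. The 5 lines of replicate 1 run from 0.27 (Tcf21) to 0.788 (Wt1) and the 1 line of replicate 2 is Tlx1 at 0.331, all left of the main mass of open promoters around the medians of 6.92 in replicate 1 and 3.5 in replicate 2.

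The deposited lists of bases whose cut rate stood above background held the same 5 genes in replicate 1. Lowest values below are those of whole stretches of touching listed bases, which can extend past the promoter window. Wt1 had 1275 bases with a false discovery rate (FDR) below 0.05 in its promoter windows in replicate 1, with a lowest value of 1.6e-09, and 0 in replicate 2. Nkx3-2 had 501 such bases in replicate 1, with a lowest value of 0.000226, and 7 in replicate 2, with a lowest value of 0.0493. Tlx1 had 201 in replicate 1 and 125 in replicate 2, with lowest values of 0.00406 and 0.0115. Replicate 2 thus listed bases below 0.05 at Tlx1 and Nkx3-2. Tcf21 had 90 bases in replicate 1 and Nkx2-5 had 86, both with a lowest value of 0.023, and 0 in replicate 2. Barx1 and Nr2f2 had 0 in both. In all, 5 of 7 genes had such bases in replicate 1, against 68.7% of protein-coding genes, and 2 of 7 in replicate 2, against 62.4%.

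Footprints lay in the promoter peaks of 4 of the 7 genes in replicate 1, against 66.4% of protein-coding genes. Wt1 had 10, Nkx3-2 5, Tlx1 2 and Nkx2-5 2, and the short Tcf21 peak held none. In replicate 2 none of the 7 genes had a footprint in a promoter peak, against 59.7% of protein-coding genes. Only Tlx1 had a promoter peak in that library, so no other gene of the 7 could count there. The Tlx1 promoter peak of replicate 2 was therefore open without a footprint, where 97.3% of open promoters of that library held one, and 98.2% did in replicate 1. These shares are over open promoters of any signal, and none was counted for promoters as weak as that of Tlx1. No gene of the 7 had a promoter footprint in both libraries, against 59.1%, a count under the same limit.

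Counting promoters and the 50 kb either side of the gene, all 7 genes had at least 1 site in both libraries, as did 86.8% of protein-coding genes. Not all 7 kept one under other settings. Wt1 had 0 with the shorter peak list, Wt1, Tcf21 and Nr2f2 had 0 with peaks at or above the median signal, and Nkx2-5 and Tcf21 had 0 within 25 kb. The 7 windows held 116 sites, of which 27 (23.3%) were in both libraries, 78 (67.2%) in replicate 1 alone and 11 (9.48%) in replicate 2 alone. Of all 146575 sites of the genome, 49.9% were in both, 36.5% in replicate 1 alone and 13.6% in replicate 2 alone. The 78 sites in replicate 1 alone were spread unevenly, with 41 in the Nkx2-5 window and 22 in the Tlx1 window. Nkx3-2 had 7, Wt1 4, Tcf21 2, Barx1 2 and Nr2f2 0, so the Nkx2-5 and Tlx1 windows weighed most on these shares. Of the 27, 1 was the Tlx1 promoter, 1 lay inside Nr2f2, and 25 lay outside the gene and its promoter. A site in both libraries inside the gene was thus found for 2 of 7, against 68.5% of protein-coding genes. In all, 6 of the 7 genes had a site in both in the window and no promoter peak in both, against 26.1% of protein-coding genes. For 10 of the 27 sites, spread over 5 genes, the nearest TSS was that of the patterning gene. The median density was 3.89 sites in both per 100 kb over the 7 windows, and 5.51 over all protein-coding genes, with quartiles of 1.92 and 9.84. Barx1 (6.76) and Tlx1 (6.59) stood at percentiles 58.5 and 57.3 of that distribution, Nkx2-5 (4.7) at 44.2 and Tcf21 (3.89) at 38.7. Nr2f2 (1.74), Nkx3-2 (0.971) and Wt1 (0.68) stood at percentiles 23, 18.8 and 15. Windows include sites that belong to neighbouring genes.

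**Figure D2:**
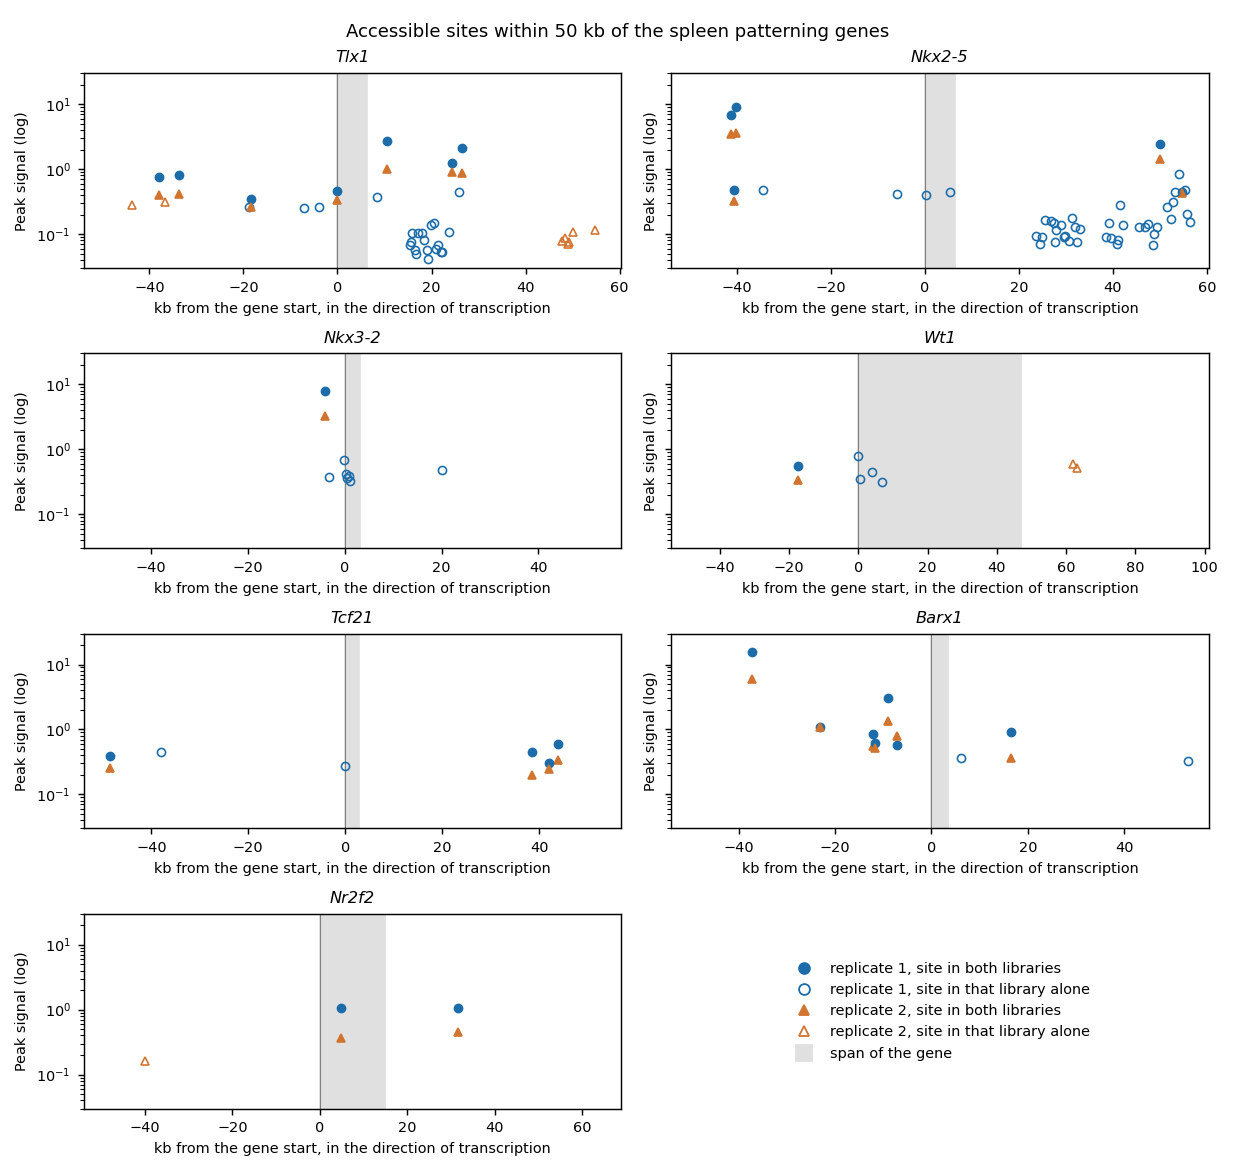
Each panel plots peak signal (log axis) against distance from the start of the gene in kb, in the direction of transcription, for replicate 1 (circles) and replicate 2 (triangles), filled where the site was in both libraries and open where it was in one. Shading marks the span of the gene. Nkx3-2 has a single filled pair, at -4.1 kb with 7.97 in replicate 1 and 3.27 in replicate 2, and open circles of weak signal crowd to the right of Tlx1 and Nkx2-5.

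Tlx1 had 7 sites in both libraries. The strongest was at +10.6 kb, past the end of the gene, with signals of 2.68 in replicate 1 and 1 in replicate 2, and its nearest TSS was that of the antisense gene Tlx1os, 2007 bp away. Sites at +26.5 kb (2.11 in replicate 1, 0.883 in replicate 2) and at +24.3 kb (1.25 in replicate 1, 0.9 in replicate 2) followed on the same side. All 3 sites after the gene exceeded the promoter in both libraries. Before the gene, sites lay at -33.7 kb (0.81 in replicate 1, 0.419 in replicate 2), at -38.0 kb (0.761 and 0.394) and at -18.5 kb (0.349 and 0.26). The site at -18.5 kb and the promoter were the 2 sites nearest to Tlx1 itself.

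Nkx2-5 had 5 sites in both, and none of them was nearest to Nkx2-5. The strongest, at -40.1 kb, had signals of 9.07 in replicate 1 and 3.61 in replicate 2, and lay inside the long noncoding genes Gm17382 and Gm20468. A site at -41.3 kb, 99 bp from the Gm17382 TSS, had 6.83 in replicate 1 and 3.52 in replicate 2. The strong sites of the window were thus at the start of a noncoding gene and within it. A weak site lay between them at -40.7 kb (0.484 in replicate 1, 0.327 in replicate 2). On the far side, sites at +50.1 kb (2.47 and 1.44) and +54.6 kb (0.443 and 0.435) lay near or inside Bnip1, a gene of vesicle traffic and mitochondria. No site in both lay within 25 kb of the Nkx2-5 span.

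Nkx3-2 had 1 site in both libraries, at -4.1 kb, between genes and nearest to its own TSS. The signal there was 7.97 in replicate 1 and 3.27 in replicate 2, which stood at percentile 93.6 of replicate 1 peaks and 90.2 of replicate 2 peaks. It was the strongest of the 10 sites nearest to a patterning gene in both libraries. In replicate 1 it exceeded the strongest Nkx3-2 promoter peak, and replicate 2 had no other peak in the window. The gene therefore had a strongly open site close to its start beside a promoter that was weak in replicate 1 and not called in replicate 2.

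Wt1 had 1 site in both, at -17.5 kb inside Wt1os, with 0.563 in replicate 1 and 0.343 in replicate 2. Past the end of Wt1, replicate 2 alone had peaks at +61.9 kb (0.599) and +63.0 kb (0.519). Peaks of replicate 1 alone lay at the start of Wt1 and in its introns. No site in both fell inside the gene.

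Tcf21 had 4 sites in both, all weak and all more than 25 kb from the gene. Signals were 0.593 in replicate 1 and 0.339 in replicate 2 at +43.9 kb, 0.45 and 0.197 at +38.5 kb, and 0.304 and 0.243 at +42.1 kb, each nearest to the gene Gm17794. The site nearest to Tcf21 itself, at -48.5 kb, had 0.394 in replicate 1 and 0.251 in replicate 2. These 4 sites lay at percentile 51.1 or below in replicate 1 and 26 or below in replicate 2.

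Barx1, with no promoter peak, had 7 sites in both libraries, and for 5 of them its own TSS was the nearest, the most of the 7 genes. The strongest of these 5, at -9.0 kb, had signals of 3.09 in replicate 1 and 1.36 in replicate 2. Sites at -12.2 kb (0.851 in replicate 1, 0.557 in replicate 2), -11.7 kb (0.626 and 0.515) and -7.2 kb (0.57 and 0.783) lay around it. All 4 lay before the gene, and the last was the 1 site of the 27 with a clearly higher signal in replicate 2. After the gene, a site at +16.6 kb had 0.93 in replicate 1 and 0.36 in replicate 2. The strongest site of the window was the promoter of the neighbouring phosphatase gene Ptpdc1, at -37.3 kb, with 15.6 in replicate 1 and 6.01 in replicate 2, and a site at -23.2 kb had 1.08 in both.

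Nr2f2 had 2 sites in both, and the one at +4.9 kb was the only site in both libraries inside a patterning gene away from its promoter. This intronic site, 268 bp long, had 1.05 in replicate 1 and 0.368 in replicate 2. It was CpG-rich, with 30 CpGs and a ratio of observed to expected CpGs of 1.12, and lay 1194 bp before the nearest TSS of Nr2f2. The other site, at +31.6 kb inside the gene Gm29683, had 1.07 in replicate 1 and 0.452 in replicate 2.

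Many of the sites in 1 library alone were runs of very weak peaks. Replicate 1 had 15 peaks below its own 5th percentile (0.124) in the Tlx1 window, between +15.4 and +23.7 kb, with signals from 0.0413 to 0.109. It had 17 such peaks in the Nkx2-5 window, between +23.6 and +48.7 kb, from 0.0675 to 0.12. Replicate 2 had 6 below its own 5th percentile (0.193) in the Tlx1 window, from 0.0712 to 0.117, but between +47.8 and +54.8 kb. None of these overlapped a peak of the other library, and the runs of the 2 libraries at Tlx1 lay in different stretches. Windows with 10 or more such peaks made up 1.59% of protein-coding genes in replicate 1 and 0.26% in replicate 2. Weak refers to the signal alone. Each of these replicate 1 peaks was given the lowest FDR of the stretches of touching listed bases that it overlapped. Such a stretch can extend past the peak, so the lowest value need not lie in it. These values ran from 5.08e-13 to 0.0252 at Tlx1 and from 2.31e-05 to 0.048 at Nkx2-5. The 5.08e-13 was also the value of a stronger peak of 0.15 at +20.5 kb. At the Tlx1 promoter the value was 0.00406 in replicate 1. Of all such peaks of the genome, 74% in replicate 1 and 26.6% in replicate 2 had another within 2 kb. The high peak counts of the Nkx2-5 window (49 in replicate 1, 5 in replicate 2) and of the Tlx1 window (29 in replicate 1, 15 in replicate 2) include these runs.

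By their place among all peaks, the sites around the patterning genes ranked lower than all sites in both. The 27 sites had a median percentile of 62.7 in replicate 1 and 40.8 in replicate 2, where all 73150 sites in both had 70.8 and 60. Of the 27, 4 sites, 2 in the Nkx2-5 window, 1 at Nkx3-2 and 1 in the Barx1 window, were in the top 10% of peaks of both libraries. Of these 4, only the Nkx3-2 site was nearest to a patterning gene. Another 8 of the 27 fell below the median peak of both. The same counts were not made over all sites in both, so these have no background. The sites shared 2 libraries and are not independent replicates, and no test was made.

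The ratio between libraries at these sites was close to that of the genome. On the log2 scale, replicate 1 over replicate 2 gave a median of 0.81 (SD 0.50, 27 sites) around the patterning genes and of 0.84 (SD 0.58) over all sites in both. It ran from -0.46 at the Barx1 site at -7.2 kb to 1.51 at the intronic Nr2f2 site, and 13 of the 27 lay above the median of all sites. The Nkx3-2 site at -4.1 kb had 1.29 and the Tlx1 promoter 0.49. Replicate 1 had 130476 peaks and replicate 2 had 95847. The smallest step of the signal scale was 1.12 times finer in replicate 1, which would be its relative depth only if 1 scaling constant served both libraries. The part of these differences in the promoter calls found in replicate 1 alone was not tested.

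**Figure D3:**
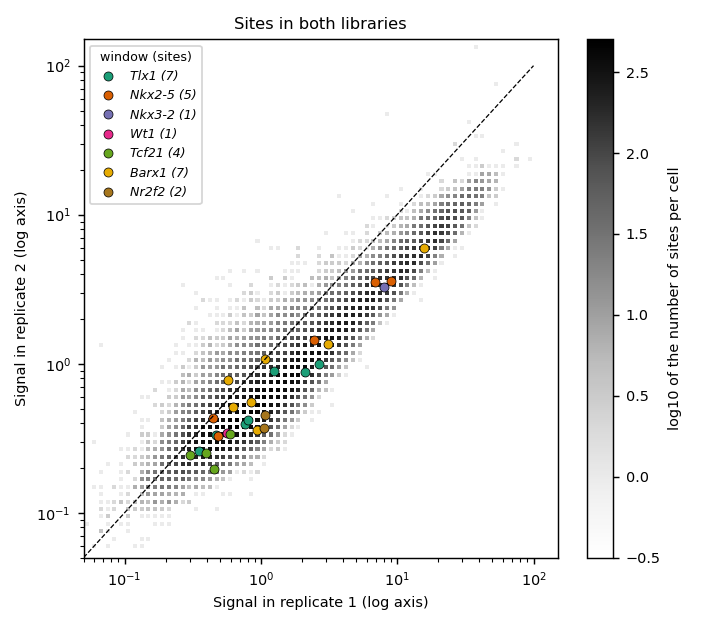
Signal in replicate 2 is plotted against signal in replicate 1 (log axes) for all 73150 sites in both libraries, in grey by the log10 number of sites per cell, and for the 27 sites of the patterning genes, coloured by gene. The dashed line is equality. The coloured points follow the grey band, from the Tcf21 sites at the low end to the Ptpdc1 promoter site of the Barx1 window at 15.6 in replicate 1 and 6.01 in replicate 2.

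Footprints were common in the distal sites. Of the 27 sites, 25 held a footprint in both libraries, near the 87.9% of all sites in both. The exceptions were the Tlx1 promoter and the Nkx2-5 site at -40.7 kb, which held footprints of replicate 1 alone. The sites held 104 footprints of replicate 1 and 77 of replicate 2, and 51% of those of replicate 1 overlapped one of replicate 2, against 54.7% over all sites in both. At the Nkx3-2 site all 3 footprints of replicate 1 overlapped one of replicate 2. At the Barx1 site at -9.0 kb 3 of 4 did, at the intronic Nr2f2 site 3 of 5, and at the Tcf21 site at -48.5 kb 1 of 2.

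Letters of the CTCF motif recurred in these footprints. CTCF is the protein that anchors chromatin loops and boundaries. The 200 bp around each site centre were searched on both strands. A long form, CCA, 2 free bases, AG, 2 free bases and GGC, was found in 9 of the 27 sites, against 16.2% of all sites in both and 21.7% of those outside promoters. A shorter core, AGNNGGCG, overlaps the long form at some sites and was added after the sequences had been seen. Either form was found in 14 of the 27 sites, over 6 of the 7 genes, against 33.2% of all sites in both and 32.3% of those outside promoters. At 13 of the 14 a match lay within 30 bp of the centre, and at 12 a match overlapped footprints of both libraries. Central placement and footprint overlap were not counted over all sites with these letters, so these counts have no background. In the sequences shown above, the reverse complement of the short core reads CGCCCTCT in the Tlx1 site at +10.6 kb and CGCCACCT in the Nkx3-2 site, and the core itself reads AGGGGGCG in the Barx1 site. All 3 stretches stand in capitals. A further match, CGCCCCCT in the Nr2f2 site at +4.9 kb, stands in lower case. It lay 90 bp from the centre and overlapped a footprint of replicate 1 alone. A match is a description of the letters, and binding was not measured.

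Letters of other factors are given with their share of all sites in both and then of those outside promoters, since most of the 27 sites were distal. The E-box CAGCTG, which TCF21 and related proteins can bind, was in 5 of 27 sites (15.5% and 16.8%), 1 of them the Tcf21 site at -48.5 kb, where it stands in capitals. RUNX letters (TGTGGT) were in 6 (15.7% and 19%), SP and KLF letters (GGGCGG) in 3 (23.5% and 11.1%) and NKX letters (TNAAGTG) in 2 (8.13% and 9.58%). Each of the following was in 1 site: GATA letters (AGATAA, 8.39% and 10.5%), typical of red cell enhancers, ETS letters (CGGAAG, 10.4% and 6.03%), AP-1 letters (TGANTCA, 5.56% and 6.55%) and WT1 letters (GCGTGGGNG, 1.27% and 0.78%). The COUP-TF direct repeat, 2 copies of AGGTCA with 1 base between, to which NR2F2 can bind, was in 0 of 27 (0.0232% and 0.0307%).

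Other genes of spleen development ranged from strongly open promoters to weak ones and none, while no patterning gene had a strong one. Of 20 such genes, listed with earlier results of these data known, 16 had a promoter peak in replicate 1, 12 in replicate 2 and 11 in both (55%, against 60.7% of protein-coding genes). The highest promoter signals were those of Pbx3 (25.8 in replicate 1, 9.99 in replicate 2), Rpsa (16.4 and 6.38) and Pbx2 (12.9 and 3.91). Pbx2 and Pbx3 encode TALE homeobox partners of other homeobox proteins, and Rpsa encodes a ribosomal protein. Hand2, Fgf10 and Wnt5a, 1 transcription factor gene and 2 genes of secreted signals, had no promoter peak in either library. Weak promoters were also found on this list. Sfrp2 (0.48 in replicate 1, 0.251 in replicate 2) and Sox11 (0.446 and 0.243) had a peak in both. Fgf9 (0.758), Sfrp1 (0.338), Isl1 (0.33), Ptf1a (0.315) and Sox9 (0.315) had one in replicate 1 alone. Foxf1 (0.31) had one in replicate 2 alone. With peaks at or above the median signal, 9 of the 20 genes and 0 of the 7 patterning genes were open in both. In both libraries the Tlx1 promoter lay below Pbx3, Rpsa and Pbx2 and above Sox11.

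Relatives of the patterning genes by family were mixed. Of 11 relatives, 9 had a promoter peak in replicate 1, 4 in replicate 2 and 4 in both (36.4%). Over all protein-coding genes the shares were 67.7% in replicate 1, 61.3% in replicate 2 and 60.7% in both. Most relatives fell in the high CpG tercile, where 91.3% of genes were open in both. The 4 were Nkx2-3 (2.55 in replicate 1, 0.938 in replicate 2), needed for normal spleen architecture in mice, the nuclear receptor gene Nr2f6 (2.49 and 0.992), Tlx2 (0.848 and 0.402) and Tcf24 (0.72 and 0.327). Nkx2-3 is also on the development list. Each of the 4 was at or above Tlx1 in replicate 1 and, apart from Tcf24, in replicate 2. Nkx2-6 had none in either library.

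Markers of cell types stood as follows in the same libraries. All 6 red cell and all 6 B cell genes were open at the promoter in both, against 60.7% of all protein-coding genes. Of 4 T cell genes 2 were (50%), and Cd3e and Bcl11b had a peak in replicate 1 alone. Summed promoter signal was 67.6 in replicate 1 and 29 in replicate 2 for red cell genes, and 23.4 and 10.9 for B cell genes. Over the 7 patterning genes it was 2.61 in replicate 1 and 0.331 in replicate 2. Stroma genes were open in both for 4 of 8 (50%, summed signal 14.8 and 6.91), with none listed at Dcn, Lum, Ccl19 or Cxcl13, and endothelium genes for 4 of 5 (80%, 4.76 and 2.77), with none at Tek. Mesothelium genes were open in both for 0 of 5, all of the low CpG tercile, where 18.9% of protein-coding genes were. Their sum was 0.926 in replicate 1, from Msln and Upk1b, and 0 in replicate 2. Upk3b, Lrrn4 and Krt19 had no promoter peak.

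Genes of neighbouring organs and of other tissues were open in both at or below the 60.7% of all protein-coding genes. Most of them, however, fell in the low CpG tercile, where 18.9% of protein-coding genes were open in both. Pancreas genes had a promoter peak in both for 3 of 5 (60%, summed signal 10.5 in replicate 1, 6.29 in replicate 2), stomach genes for 1 of 4 (25%, 5.17 and 1.81), smooth muscle genes for 2 of 4 (50%, 4.34 and 1.57), fat genes for 1 of 3 (33.3%, 2.7 and 1.38), and heart genes for 0 of 4, with no peak in either library. Of 3 liver genes none was open in both and 1 was open in replicate 1 alone. The part of these cell types in the sites around the patterning genes was not tested.

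**Figure D4:**
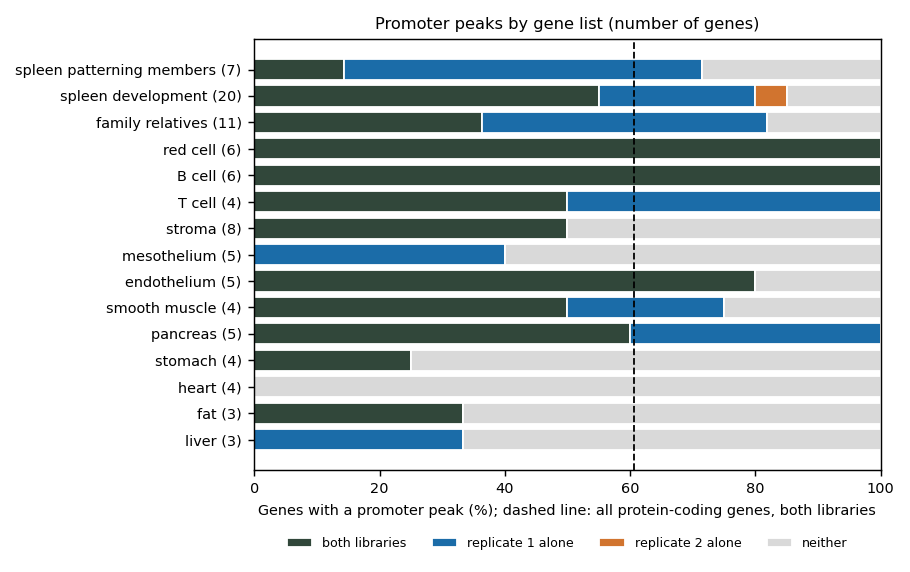
Bars show, for each gene list with its number of genes, the percentage open at the promoter in both libraries, in replicate 1 alone, in replicate 2 alone and in neither. The dashed line is the 60.7% of all protein-coding genes with a peak in both. The patterning genes have 14.3% in both, the development list 55% and the red cell and B cell lists 100%.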

How the data were processed

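DNase-seq was deposited for 2 spleen libraries of 1 group, on mm10 per the labels. Peak lists hold a signal per peak as deposited by the authors, a density that moved in whole steps of 0.00375 in replicate 1 and 0.00419 in replicate 2. Not given in the sources used here are its scaling constant, the aligner and the callers. The depth is unknown, as read totals were not used here. FDR (p-value like) stretches, as deposited, lay below 0.05. Footprints were used by position, since their deposited value was 0.01 throughout. The longer of each library's 2 peak lists was used.

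Peaks of both libraries were merged into sites on an overlap of at least 1 bp, with the strongest signal per library. Genes and TSSs came from GENCODE release M21, and bases from the RefSeq genome (pysam 0.24.0, samtools 1.23.1, Python 3.11.15, numpy 2.4.6, scipy 1.17.1, matplotlib 3.10.9). Peak ends were checked against that genome. The interval code was tested on simulated data with 200 planted genes. Percentages of protein-coding genes are exact counts over genes. Their 95% Clopper-Pearson intervals, for example 60.1% to 61.4% for promoters open in both libraries, cover counting error only.

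The members, the gene lists and most motifs were chosen with earlier results of these data known, and the short CTCF core after the sequences were seen. Named were all 7 genes, the strongest site of each window, the strongest site nearest to each gene, and of the other lists the 4 highest promoters open in both and the genes open in neither. Some genes that this rule picked are not reported here. The further sites in both, and the genes of the development list with weak promoters, were named after their values were seen. No test was made, because there was no contrast. Alternatives were the shorter peak list, stronger peaks, other promoter and window widths, protein-coding TSSs, an FDR of 0.001, merging within 150 bp, reciprocal overlap of 50%, nearest sites, and each library alone.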

Additional observations from a re-analysis of the deposited data

How the results depend on the processing

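Of 53 alternatives over the main results, 37 stayed within their limit (1.5 times a count, or 1 SD of the spread), 16 did not, and 0 reversed a direction. Only the log2 ratio had a direction that could reverse, and a count of 0 could not fall under a stricter setting. The 1 gene with a promoter peak in both libraries, Tlx1, became 0 with the shorter peak list, 0 with peaks at or above the median signal and 0 with stretches below an FDR of 0.001. A single library gave 1 to 5 genes, the 5 being those of replicate 1. Genes with a promoter footprint in both (0) ranged from 0 to 4 by single library. The 27 sites in both became 16 with the shorter list, 11 with stronger peaks, 15 at 25 kb, 69 at 100 kb, 2 inside genes and 10 with nearest sites only, and single libraries gave 38 to 109. The median density of 3.89 per 100 kb became 1.74 with the shorter list and 1.89 at 25 kb, drops of over 1.5 times that lie within the wide limit of 2.74 (SD). It became 0.971 with stronger peaks, 0 inside genes and 0.971 with nearest sites, and 3.89 to 7.77 by single library. The median log2 ratio of 0.81 stayed between 0.63 and 1.21, the 0.63 from nearest sites, an alternative added after seeing the data. Genes of the development list open in both (11) ranged from 9 to 16. The causes were not tested. Counts in both libraries rest on replicate 2, the library with fewer peaks. No paired analysis was possible because there was 1 group. Read depth is unknown, so a promoter with no listed peak was not detectable at this depth rather than shown to be closed.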
